A study of Mus musculus with 13 samples.

Results

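Imprinted loci are described here as 9 fixed windows of mouse build mm9 that hold 10 imprinted genes, Grb10, Gnas, Nespas, Peg3, Snrpn, Kcnq1ot1, H19, Peg10, Mest and Airn, among 82979 merged peak regions of the whole series. The windows were chosen by gene. Every peak of 8 deposited lists that lies in them was counted, though not each is described. They cover 11.82 to 11.96 Mb of chromosome 11 (Grb10), 174.1 to 174.18 Mb of chromosome 2 (Gnas and its antisense Nespas), 6.64 to 6.7 Mb (Peg3), 67.1 to 67.17 Mb (Snrpn), 150.37 to 150.5 Mb (Kcnq1ot1) and 149.74 to 149.79 Mb (H19) of chromosome 7, 4.68 to 4.72 Mb (Peg10) and 30.67 to 30.71 Mb (Mest) of chromosome 6, and 12.91 to 12.96 Mb of chromosome 17 (Airn). No mm9 annotation was used here, so peaks are placed by coordinate and are not assigned to exons, introns or promoters.

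The cells are J1 mouse embryonic stem cells in which the H3K9 methyltransferase gene Setdb1 can be knocked out by induction. All groups carry this inducible allele. The cells were grown without feeders and with LIF. Tamoxifen at 2.5 µM was given to induce the ablation, the protocol names DMSO as its control, and cells labelled as without tamoxifen are called untreated here. Chromatin immunoprecipitation and sequencing gave H3K9me3 in untreated cells (n = 4), H3K27me3 in untreated cells (n = 2) and H3K27me3 after tamoxifen (n = 2). H3K9me3 after tamoxifen was not analysed here, so loss of H3K9me3 and of Setdb1 could not be checked. The lists held 18037 to 42725 peaks of H3K9me3 and 7041 to 22265 peaks of H3K27me3, with positions only, so depth and peak height are unknown. Replicate 1 of each group was processed with MACS2 2.0.10 and the other libraries with MACS2 2.1.0. H3K27me3 untreated replicate 1 had the shortest list and a median peak width of 2511 bp, against 727 to 784 bp in the other H3K27me3 lists. H3K9me3 replicate 4 has no antibody named in its label and is grouped by its title.

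An imprinted gene is expressed from one parental copy only, and the choice is set by a stretch of DNA, the imprinting control region, that is methylated on that copy or on the other. As background, the methylated copy of such a region is known to be bound by the zinc finger protein ZFP57, which recruits TRIM28 and SETDB1 and carries H3K9me3, while H3K27me3, the mark of Polycomb repressive complex PRC2, is known from unmethylated copies and from silenced neighbouring genes. The lists do not separate parental copies, so peaks of both marks over the same bases do not show whether 1 copy or both copies carry them.

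Every imprinted window held H3K9me3 in every library. Of the 9 windows, 9 had a peak in all 4 H3K9me3 lists, against 22.1% of 60 kb bins of the genome. The windows are 40 to 140 kb long, and the same share was 15.8% of 40 kb bins and 41.5% of 140 kb bins. Summed over the windows, H3K9me3 was denser in them than beside them. Its peaks covered 8.19% to 14.5% of the windows in the 4 libraries, and 0.799% to 1.42% of flanks of the same length on each side. By window and library, the share was larger in the window in 35 of 36 cases, and the exception was Grb10 in replicate 1, with 3.37% of the window and 3.68% of its flanks.

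**Figure D1:**
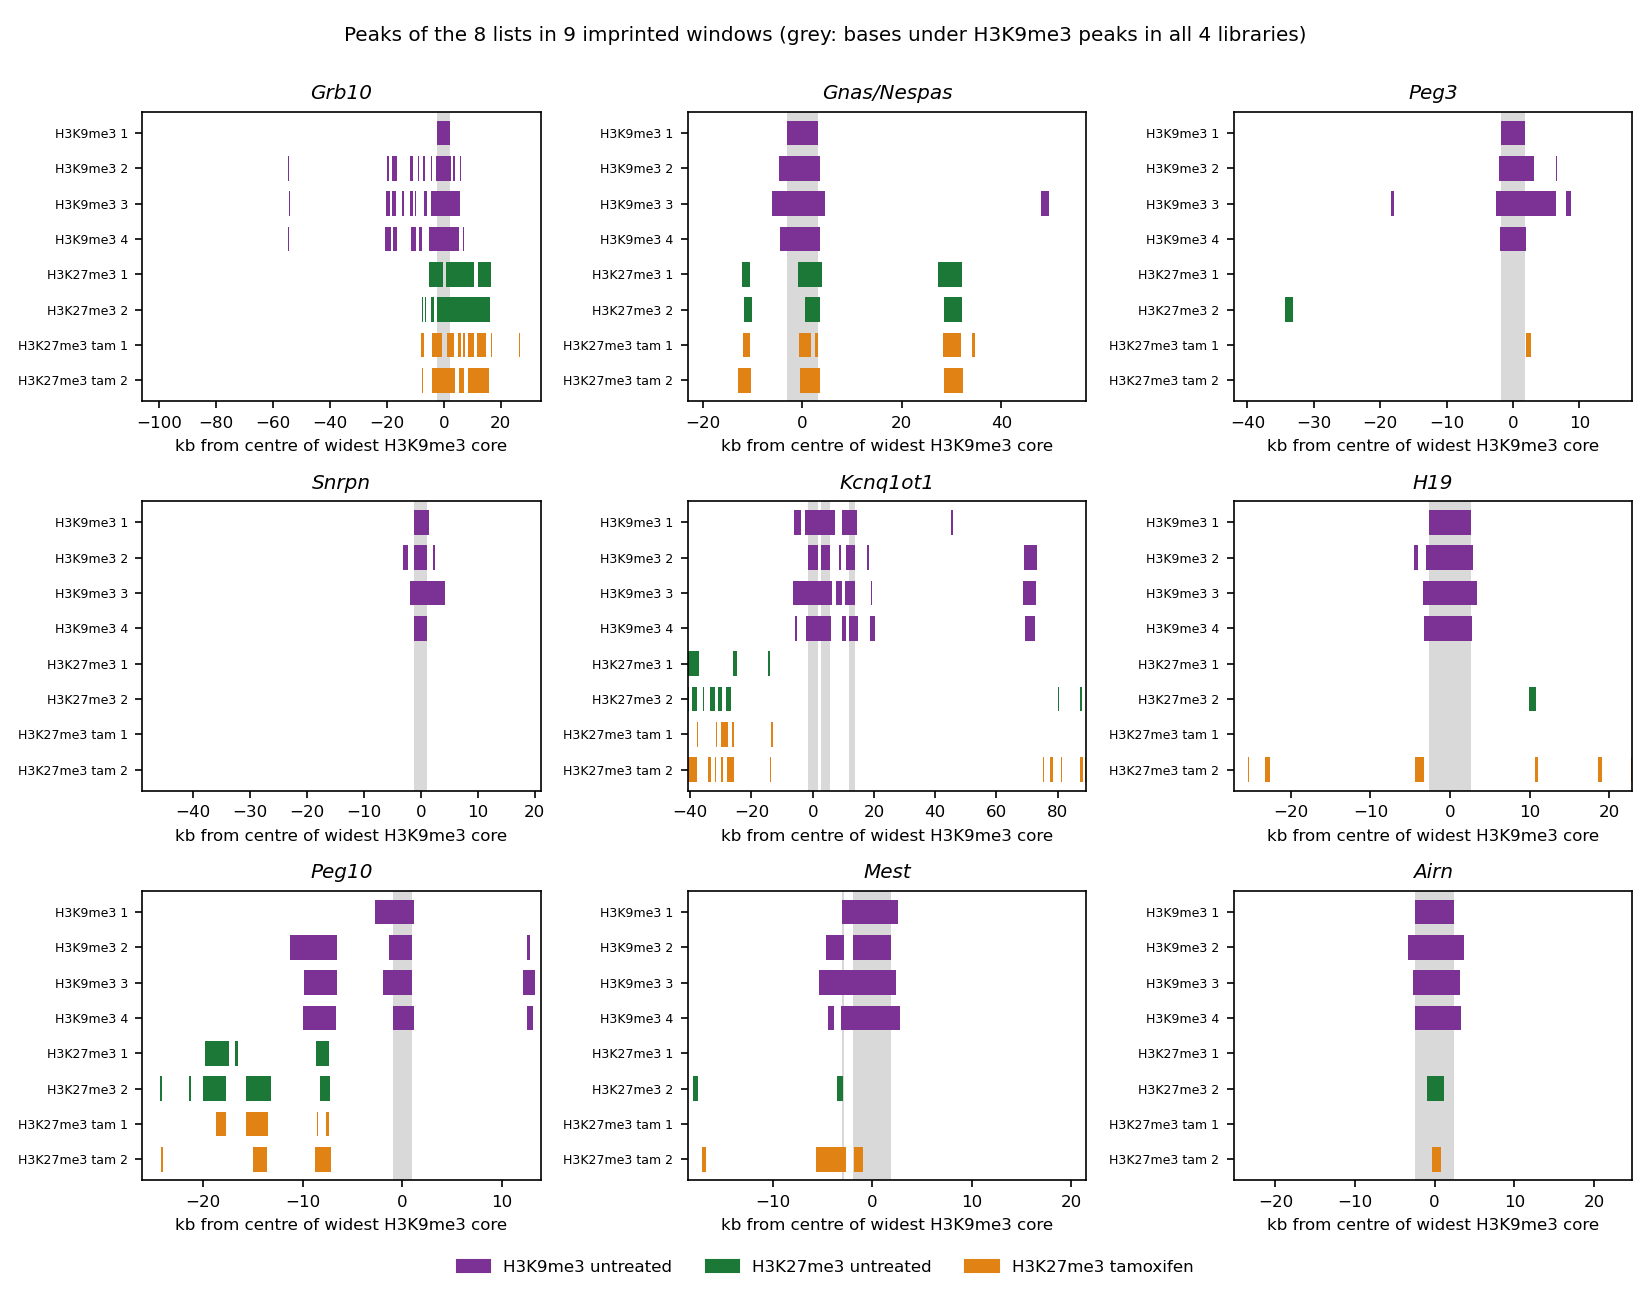
Peaks of the 8 lists in each of the 9 windows, 1 row per library, with the distance in kb from the centre of the widest stretch under H3K9me3 peaks in all 4 libraries on the x axis. Purple bars are H3K9me3, green bars H3K27me3 in untreated cells and orange bars H3K27me3 after tamoxifen, and grey marks bases under H3K9me3 peaks in all 4 libraries. H3K27me3 peaks of all 4 libraries cross the grey stretch at Grb10 and Gnas/Nespas and lie beside it at Kcnq1ot1 and Peg10.

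The bases under H3K9me3 peaks in all 4 libraries, called the core here, formed a single stretch in 7 windows, 2 at Mest and 3 at Kcnq1ot1. The widest core measured 6160 bp at Gnas/Nespas, 5363 bp at H19, 4881 bp at Airn, 4724 bp at Grb10, 3767 bp at Mest, 3527 bp at Peg3, 3204 bp at Kcnq1ot1, 2267 bp at Snrpn and 1920 bp at Peg10. The median of these 9 was 3767 bp, while the same measure over the 10815 H3K9me3 regions of the genome held by all 4 libraries had a median of 962 bp. Of those regions, 78.2% had a narrower core than Peg10, the lowest of the windows, and 98.4% a narrower one than Gnas/Nespas, the highest. This order rests on single libraries. Without replicate 1 the widest core of Peg10 was 3231 bp, in the second peak of that window, and above the 2336 bp of Snrpn, and the core bases of Grb10 in all pieces rose from 4724 to 8946 bp. Without replicate 2 the widest core of Kcnq1ot1 was 8331 bp, above the 6160 bp of Gnas/Nespas. The median over the 9 windows was 3767 to 4881 bp with 1 library left out, and over the regions of the genome 714 to 1071 bp.

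The peak over the widest core ranged from compact to variable between libraries. At H19, a long noncoding RNA gene expressed from the maternal copy, the peak was 5363, 5846, 6799 and 6073 bp wide in replicates 1 to 4, a mean of 6020 ± 598 bp (SD, n = 4). Its start moved by 711 bp and its end by 725 bp between libraries. At Airn, the noncoding antisense RNA of the Igf2r cluster, the widths were 4881, 7058, 5935 and 5830 bp, with borders within 953 and 1224 bp. These windows had the most alike peak borders on both sides.

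The peak at Snrpn, which encodes a small nuclear ribonucleoprotein of the region affected in Prader-Willi syndrome, was 2496, 2393, 6176 and 2338 bp wide. At Peg3, a zinc finger gene expressed from the paternal copy, it was 3527, 5290, 9006 and 3847 bp wide. In both windows replicate 3, which has the longest list, was the widest, and the excess lay on the right side, where ends differed by 3133 bp at Snrpn and 4713 bp at Peg3, against 776 and 766 bp for starts. The means were 3351 ± 1885 bp at Snrpn and 5418 ± 2512 bp at Peg3 (SD, n = 4). The widths at Mest, which encodes a protein of the alpha/beta hydrolase fold, were 5690, 3767, 7793 and 5957 bp, a mean of 5802 ± 1647 bp. In replicates 2 and 4 a gap split a further peak, of 1829 and 547 bp, from the main one.

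Set against all peaks of its own list, the peak over the core was wide in the lists of MACS2 2.1.0 and less so in that of MACS2 2.0.10. The median share of narrower peaks over the 9 windows was 82.3% in replicate 1, 97.7% in replicate 2, 99.2% in replicate 3 and 98.3% in replicate 4. Replicate 1 has a median peak width of 1896 bp over its whole list, against 806 to 830 bp in the other 3 H3K9me3 lists.

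Kcnq1ot1, the noncoding RNA that lies antisense to Kcnq1, had the most H3K9me3 bases of any window. Its peaks covered 17319, 14752, 22432 and 18563 bp, a mean of 18267 ± 3198 bp (SD, n = 4). In replicate 3 a single peak of 12952 bp ran from 150404119 to 150417070, and in replicate 2 the same stretch held peaks of 3204 and 3135 bp. A separate peak near 150479449 to 150483937 was 4436, 4284 and 3502 bp wide in replicates 2 to 4 and was missing from replicate 1.

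**Figure D2:**
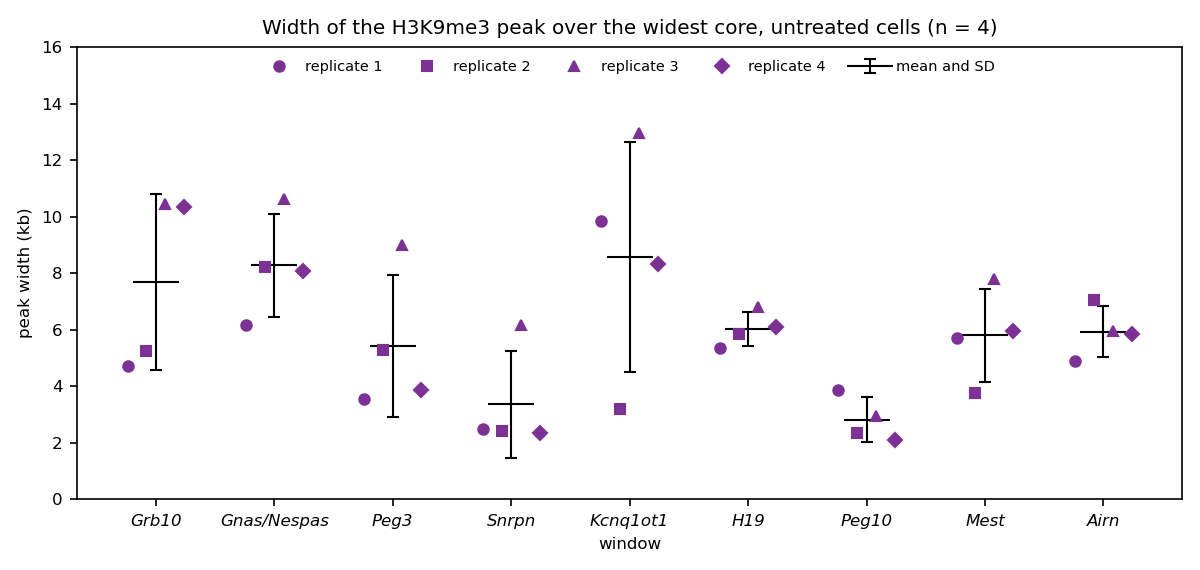
Width in kb of the H3K9me3 peak over the widest core of each window, 1 point per untreated library, with the mean and SD (n = 4). Points lie between 2096 and 12952 bp, H19, Peg10 and Airn have the narrowest spreads, with SDs of 598, 794 and 891 bp, and replicate 3 is the highest point in 7 of the 9 windows.

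H3K27me3 was found at fewer of the loci. A peak lay in 4 windows in untreated replicate 1, 8 in untreated replicate 2, 5 in tamoxifen replicate 1 and 7 in tamoxifen replicate 2. Grb10, Gnas/Nespas, Kcnq1ot1 and Peg10 had H3K27me3 in both untreated libraries, which is 4 of 9 windows against 10.7% of 60 kb bins, and they also had it in both tamoxifen libraries. They are 140, 80, 130 and 40 kb long, and no H3K27me3 share for bins of other lengths is given here. These 4 windows therefore held both marks in all 6 untreated libraries, as did 1.61% of 60 kb bins, 0.746% of 40 kb bins and 7.45% of 140 kb bins. Both counts of 4 rose to 8 without untreated replicate 1, the shortest H3K27me3 list. In the other 5 windows the pairing of both marks was thus not held by every library, and Snrpn had no H3K27me3 peak in any of the 4 lists. With windows extended by 20 kb, both counts of 4 rose to 5, with Airn as the added window.

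Only at Grb10 and Gnas/Nespas did both marks cover the same bases in all 6 untreated libraries. This is 2 of 9 windows, against 0.0341% of 60 kb bins. Grb10 and Gnas/Nespas are 140 and 80 kb long, and no share for longer bins is given here. With peaks of each mark first merged into regions, the same 2 windows overlapped, against 0.0795% of bins. Read from H3K9me3, 2 of the 10 regions in the windows that all 4 H3K9me3 libraries hold overlapped H3K27me3 peaks of both untreated libraries, against 0.259% of the 10815 regions of the genome, which include these 10. The loci were chosen with earlier results of these data known, so these shares are a description and not a test. Without untreated H3K27me3 replicate 1 the count of windows with overlapping regions was 4, and without H3K9me3 replicate 1 it was 3. With windows extended by 20 kb it was also 3, with Airn added.

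Grb10 encodes an adaptor protein that restrains insulin and growth factor signalling, and it is expressed from different parental copies in different tissues. Its H3K9me3 core ran from 11923552 to 11928275 on chromosome 11 (4724 bp), which is the whole H3K9me3 peak of replicate 1. The peak was 5232 bp wide in replicate 2, 10427 bp in replicate 3 and 10336 bp in replicate 4. Replicates 3 and 4 thus had a peak wider than replicates 1 and 2, with the added bases on both sides of the core. Replicates 2 and 3 had 7 smaller peaks to the left of it and replicate 4 had 5, the farthest of each between 11871062 and 11871848, and replicate 1 had none of these.

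H3K27me3 at Grb10 formed a larger block that began left of the H3K9me3 core and ran on to its right. Untreated replicate 1 held it as peaks of 4679, 9896 and 4694 bp between 11920834 and 11942526, and untreated replicate 2 as 1 peak of 18803 bp from 11923412 to 11942214 with 3 small peaks before it. Untreated replicate 1 left 1070 bp inside the H3K9me3 core without a peak. Both marks were shared in all 6 untreated libraries over 1961 bp from 11923552 to 11925512 and over 1693 bp from 11926583 to 11928275. These 3654 bp are 77.3% of the H3K9me3 core and 21.2% of the bases with H3K27me3 in both untreated libraries, so most of the H3K27me3 block lay outside the core. The core is limited by the narrowest H3K9me3 peak, that of replicate 1. With peaks merged into regions, the marks overlapped by 11060 bp, the whole H3K9me3 region, out of 21693 bp of H3K27me3. Pairs of single libraries shared 3654 to 9717 bp in untreated cells, and H3K27me3 lists after tamoxifen shared 3195 to 8853 bp with the untreated H3K9me3 lists. Bases under a peak in all 8 lists came to 3195 bp.

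The RefSeq promoter table holds 2 promoters of Grb10 (GRCm38.p6, minus strand), each 300 bases long and read 5′ to 3′, and they are shown because Grb10 has the most bases with both marks in all 6 untreated libraries and its promoters differ in base composition. Capitals mark TGCCGC or its reverse complement GCGGCA, the hexamer that ZFP57 is known to bind when methylated. Coordinates of this build cannot be laid over the mm9 peaks, so which promoter lies under which mark was not tested.
Grb10 promoter at chr11:12027922-12028221: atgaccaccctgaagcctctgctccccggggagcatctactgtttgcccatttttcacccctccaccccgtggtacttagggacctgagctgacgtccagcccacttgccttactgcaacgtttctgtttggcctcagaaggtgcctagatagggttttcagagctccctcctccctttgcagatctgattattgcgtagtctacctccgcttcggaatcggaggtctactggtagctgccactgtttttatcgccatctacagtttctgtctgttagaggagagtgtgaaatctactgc
Grb10 promoter at chr11:12037371-12037670: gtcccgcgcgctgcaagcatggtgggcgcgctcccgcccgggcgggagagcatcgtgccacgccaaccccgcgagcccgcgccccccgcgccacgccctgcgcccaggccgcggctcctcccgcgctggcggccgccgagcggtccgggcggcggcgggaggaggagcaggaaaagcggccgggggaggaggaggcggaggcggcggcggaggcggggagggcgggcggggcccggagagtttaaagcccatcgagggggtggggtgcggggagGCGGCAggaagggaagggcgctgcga
The first holds 9 CpG dinucleotides and no hexamer, and the second 45 CpG and 1 hexamer, where the median promoter of the table holds 7 CpG and 1.93% hold 45 or more. Both strands were searched, and 11.6% of the table's 32851 promoters hold the hexamer.

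The Gnas locus makes the stimulatory G protein alpha subunit and several other transcripts, and Nespas is the antisense noncoding RNA that starts within it. The H3K9me3 peak there was 6160, 8226, 10617 and 8073 bp wide in replicates 1 to 4, and the core, from 174119852 to 174126011 on chromosome 2, was the whole peak of replicate 1. H3K27me3 came as 3 separate regions held by all 4 libraries, and a further one of 684 bp, from 174156987 to 174157670, held by tamoxifen replicate 1 alone. The middle one of the 3 crossed the right part of the H3K9me3 core, with peaks of 4850 bp in untreated replicate 1 and 3095 bp in untreated replicate 2. Both marks were shared in all 6 untreated libraries over 2538 bp from 174123474 to 174126011, which is 41.2% of the H3K9me3 core, and in all 8 lists over 1662 bp. The left region, from 174109952 to 174112844, and the right one, from 174150168 to 174155235, had no H3K9me3 peak in any library. A single locus thus held places with peaks of H3K27me3 alone and places with peaks of both marks.

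Peg10 and Kcnq1ot1 carried both marks, but no bases lay under both marks in every untreated library. Peg10, a gene derived from a retrotransposon and known for its role in the placenta, had its H3K9me3 core at 4705142 to 4707061 on chromosome 6. In replicates 2, 3 and 4 a second H3K9me3 peak of 4697, 3329 and 3310 bp lay to the left, at 4694825 to 4699546, and replicate 1 had none. All 4 H3K27me3 lists had peaks inside that second stretch, between 4697378 and 4698921. There the marks shared 1254 bp in untreated replicate 1 and 946 bp in untreated replicate 2 with each of H3K9me3 replicates 2 to 4, while H3K9me3 replicate 1 lay 4701 and 4567 bp away. Without H3K9me3 replicate 1, the overlap of regions at Peg10 was 1388 bp in place of 0.

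At Kcnq1ot1 the marks did not overlap in any pair of libraries. The smallest distance between an H3K9me3 and an H3K27me3 peak in the window was 6906 to 20507 bp over the 8 pairs of untreated libraries. With H3K27me3 after tamoxifen it was 1787 to 2473 bp for H3K9me3 replicates 2 to 4, whose right-hand peak ends near small H3K27me3 peaks at 150485725 to 150486086, and 6938 and 7569 bp for H3K9me3 replicate 1, which lacks that peak. Those small peaks were 146 bp wide in tamoxifen replicate 1, where no peak of the list was narrower, and 207 bp in tamoxifen replicate 2. They did not overlap each other, so the shorter distances rest on peaks held by single libraries. H3K27me3 lay mostly to the left of H3K9me3, from the window's edge at 150370001 up to 150397689, and in smaller peaks to its right. It was denser outside the window than in it. In untreated replicates 1 and 2, H3K27me3 covered 4.28% and 5.82% of the window, 12.9% and 12.2% of the left flank and 9.21% and 27.6% of the right flank. The main H3K9me3 peaks of Kcnq1ot1 thus had H3K27me3 on both sides at a distance. With the window extended by 20 kb, peaks of both marks outside it came into the comparison and the smallest distance was 0 bp.

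In the Airn and Mest windows, H3K27me3 peaks overlapped the H3K9me3 core in the H3K27me3 libraries of MACS2 2.1.0 alone. The Airn window held 1 H3K27me3 peak of 2148 bp in untreated replicate 2, from 12934242 to 12936389 on chromosome 17, and 1 of 1197 bp in tamoxifen replicate 2, both wholly inside the H3K9me3 core. Replicate 1 of either state had none. At Mest, untreated replicate 2 had a peak of 599 bp that shared 144 bp with the core, and tamoxifen replicate 2 had peaks of 2962 and 898 bp that shared 1164 bp with it. Both libraries also had a peak to the left of all H3K9me3 peaks there, of 447 bp untreated and 435 bp with tamoxifen. Caller version, list length and any difference between the cultures cannot be told apart in these libraries. Without untreated replicate 1, the overlap of regions was 2148 bp at Airn and 599 bp at Mest, in place of 0. With the Airn window extended by 20 kb, regions held by every untreated library of their mark overlapped by 1012 bp outside it.

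Mest is shown by 1 of its 3 promoters in the RefSeq table (GRCm38.p6, plus strand), picked because it holds 2 copies of the hexamer, marked in capitals.
Mest promoter at chr6:30737800-30738099: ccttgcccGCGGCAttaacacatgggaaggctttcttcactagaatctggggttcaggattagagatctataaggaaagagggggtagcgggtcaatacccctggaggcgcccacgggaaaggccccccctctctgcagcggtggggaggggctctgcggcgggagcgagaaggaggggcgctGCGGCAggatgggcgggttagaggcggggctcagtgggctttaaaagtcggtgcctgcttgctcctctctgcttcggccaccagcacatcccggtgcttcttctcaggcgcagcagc
It holds 17 CpG, and a further Mest promoter in the table starts 3 bases downstream and holds the same 2 hexamers. Of all promoters listed, 1.53% hold 2 or more, a share given as background only, since the promoter shown was picked for its 2 copies. Of the 10 genes, 7 were in the table with 16 promoters, and 4 promoters, of Grb10, Snrpn and Mest, held the hexamer. GCCATNTT, the motif of the factor YY1, was searched on both strands and was in none of the 16, against 6.05% of all promoters.

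Snrpn had no H3K27me3 peak, and Peg3 and H19 had some in part of the libraries and none in the H3K9me3 core. At Peg3, untreated replicate 2 had a peak of 1141 bp that lay 14820 to 31379 bp from H3K9me3. Tamoxifen replicate 1 had a peak of 681 bp there, wholly inside the H3K9me3 peaks of replicates 2 and 3. It lay 246 and 80 bp from those of H3K9me3 replicates 1 and 4. At H19, untreated replicate 2 had a peak of 896 bp, 6457 to 7182 bp from the H3K9me3 peak. Tamoxifen replicate 2 had 6 peaks there that covered 3112 bp, close to the 3091 bp of Peg10 in the same library, and that of 1070 bp at 149762804 overlapped H3K9me3 replicates 2, 3 and 4 by 367, 112 and 27 bp.

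The comparison with tamoxifen asked whether H3K27me3 at the imprinted loci differed after Setdb1 ablation was induced. In the Grb10 window it covered 19269 and 20533 bp in untreated replicates 1 and 2 and 15034 and 17988 bp after tamoxifen. Both tamoxifen libraries lay below both untreated ones, with means of 16511 ± 2089 and 19901 ± 894 bp (SD, n = 2 each), a difference of -3390 bp (two-sided exact permutation p = 0.333, the smallest that 2 libraries against 2 allow). Within replicate 1 the difference was -4235 bp and within replicate 2 it was -2545 bp, and it was -1913 bp without tamoxifen replicate 1. The window held 3 and 4 H3K27me3 peaks in untreated cells and 9 and 4 with tamoxifen. Tamoxifen replicate 1 had the most broken block, and its widest peak, of 3752 bp, lay at the left end of the block.

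Peg10 was the other window without overlap between the states. H3K27me3 covered 3860 and 6184 bp in untreated cells and 3605 and 3091 bp after tamoxifen, a difference of -1674 bp (exact permutation p = 0.333, two-sided, again the least this design gives). Most of it came from replicate 2, at -3093 bp, against -255 bp in replicate 1, and it was -512 bp without untreated replicate 2 and -2836 bp without untreated replicate 1. The region from 4686045 to 4688668 held a peak in both untreated libraries and in tamoxifen replicate 1, and none in tamoxifen replicate 2.

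Of the 8 windows with any H3K27me3, 2 thus had less in both tamoxifen libraries and 0 had more. Among 60 kb bins with any H3K27me3, 7.32% had less and 9.58% more by the same rule. The count with less was 4 without untreated replicate 1, and the count with more was 3 without tamoxifen replicate 1 and 1 without untreated replicate 1. No single window could reach a p of 0.05 in this design, and in the other 6 the groups overlapped. Gnas/Nespas had 11300 and 8550 bp untreated and 8740 and 10565 bp with tamoxifen, and Kcnq1ot1 had 5563 and 7571 bp against 4295 and 9752 bp. The direction turned between replicates in both of these, at -2560 and 2015 bp for Gnas/Nespas and at -1268 and 2181 bp for Kcnq1ot1. H19, Mest and Airn had 0 bp in replicate 1 of each state, so their values rest on replicate 2, at 896 and 3112 bp, 1046 and 4295 bp, and 2148 and 1197 bp without and with tamoxifen.

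**Figure D3:**
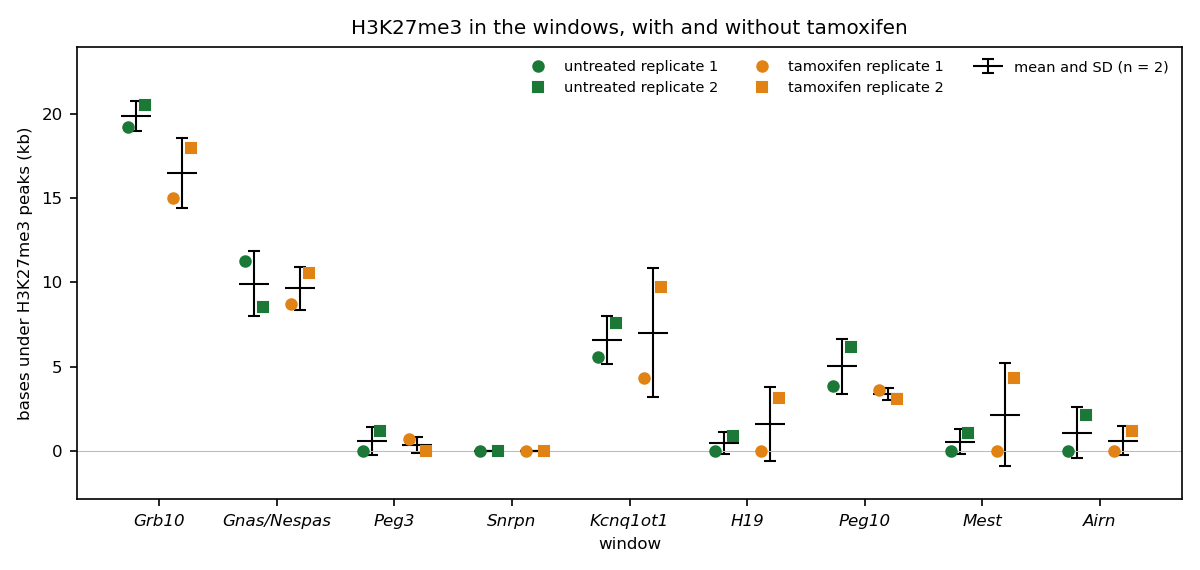
Bases under H3K27me3 peaks in each window in kb, 1 point per library, with green for untreated cells and orange for tamoxifen, and the mean and SD of each group (n = 2). Grb10 and Peg10 have both orange points below both green ones, and the groups of the other windows overlap or are all at 0.

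Within the H3K9me3 cores, a comparison chosen after the peaks were seen, H3K27me3 of the untreated and tamoxifen libraries overlapped in every window that had any. At Grb10, H3K27me3 covered 77.3% and 100% of the core in untreated replicates 1 and 2 and 67.6% and 100% with tamoxifen. At Gnas/Nespas it covered 64.3% and 41.2% untreated and 45.3% and 57.0% with tamoxifen. The mean difference was -230 bp at Grb10 and -97 bp at Gnas/Nespas (two-sided exact permutation p = 1 each). Mest had 0 and 144 bp untreated and 0 and 1164 bp with tamoxifen, and Airn 0 and 2148 bp against 0 and 1197 bp. Of the 9 cores, 0 had more and 0 had less H3K27me3 in both tamoxifen libraries, against 0.074% and 0.0647% of the H3K9me3 regions of the genome, counted over whole regions and including those without H3K27me3. The cores of Peg3, Snrpn, Kcnq1ot1, H19 and Peg10 had no H3K27me3 peak in either state.

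**Figure D4:**
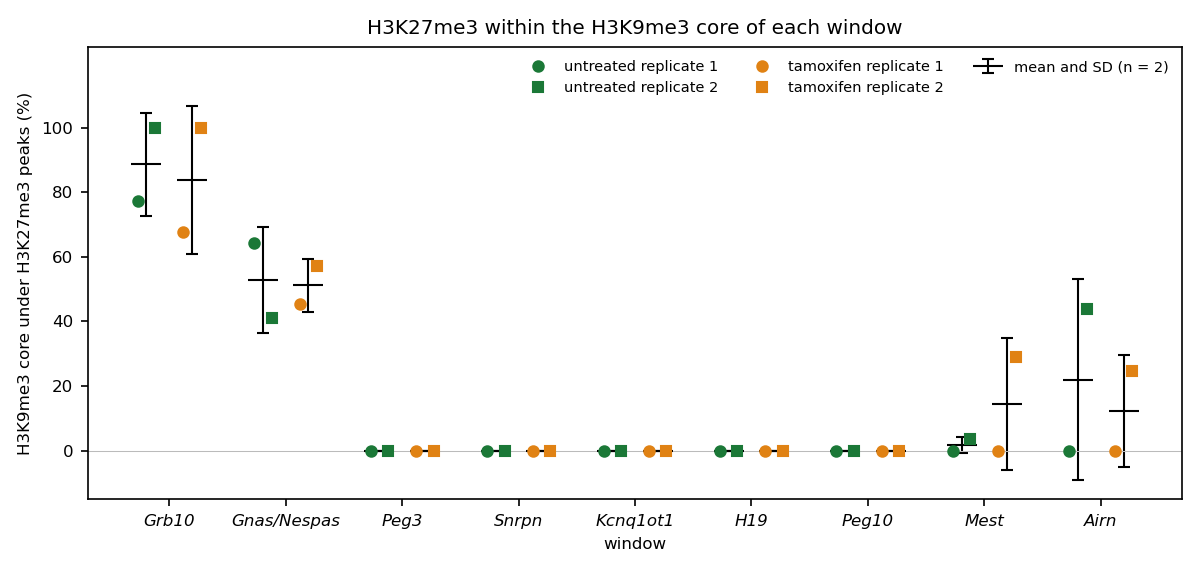
Share in percent of each window's H3K9me3 core that lies under H3K27me3 peaks, 1 point per library, green for untreated cells and orange for tamoxifen, with the mean and SD of each group (n = 2). Grb10 lies at 67.6% to 100% and Gnas/Nespas at 41.2% to 64.3% in both states, Mest and Airn are above 0 only in replicate 2, and the other 5 windows are at 0.

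By region, the H3K27me3 peaks of the 4 lists merged into 44 regions in the windows. Of these, 7 held a peak in all 4 libraries, against 15.3% of the 31723 such regions of the genome. They were 3 at Gnas/Nespas, 2 at Kcnq1ot1, 1 at Grb10 and 1 at Peg10. A single region, from 150378881 to 150379573 at Kcnq1ot1 (693 bp), was present with tamoxifen in both lists and absent from both untreated lists, and 0 regions did the reverse. Over the genome 2.18% of regions were of the first kind and 0.281% of the second, so 1 and 0 of 44 do not set these windows apart. The other regions were held by 1 library (27 regions) or by another combination (9 regions). The 693 bp region at Kcnq1ot1 joins peaks of 582 bp in tamoxifen replicate 1 and 192 bp in tamoxifen replicate 2, which share 81 bp. It lies between peaks of untreated replicate 2 that end at 150378708 and start at 150379784.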

How the data were processed

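Peak lists of 8 of the 13 samples were used, 1 per library, and the 5 inputs were not analysed here. The lists the authors deposited hold chromosome, start and end, in bp and without a score, a header or any other normalised value. Bowtie 0.12.7, MACS2 2.0.10 or 2.1.0 and mm9 are named in the submitters' processing notes. For the threshold, calling mode and control, the sources used here give nothing. They and the depth set how many peaks a list holds and how wide they are.

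Windows were read from the rule for these loci. The members and lists were chosen with earlier results of these data known, and the text names all 10 genes, whatever their values. Peaks were cut at window borders for base counts. A core is the set of bases under a peak in all 4 H3K9me3 lists. Regions are touching or overlapping peaks merged over lists, held by a library with at least 1 bp. Bins of 60 kb run from the start of chromosomes 1 to 19, X and Y to their last peak. Group means were tested by exact permutation, two-sided, with Python 3.11.15 and NumPy 2.4.6. Interval code was tested on simulated data. Whether cultures were separate is not stated, so the p-values speak of these libraries' spread alone, and that can be technical. No list shared more than 1 identical peak with another. Positions count from 1. Promoters came from the RefSeq table of GRCm38.p6. Alternatives were leaving out each library, peaks of at least 500 bp, an equal number of widest peaks per mark, windows extended by 20 kb, a cover of at least 1 kb, merging over 1 kb, H3K9me3 in at least 2 libraries, each MACS2 version alone and a block by replicate number. Chosen after seeing the data were the H3K27me3 comparison in the cores, the core widths and these without each library, the shares of H3K27me3 regions over the genome, bins of 40 and 140 kb, and the alternatives for distances and cores.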

Additional observations from a re-analysis of the deposited data

How the results depend on the processing

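H3K9me3 in all 9 windows held under every alternative run. Leaving out libraries gave 4 to 8 windows with H3K27me3 in the untreated libraries kept, 4 to 8 with both marks, 2 to 4 with overlapping regions of both, 2 to 4 with less and 0 to 3 with more H3K27me3 after tamoxifen. Each upper count of these ranges came without untreated replicate 1, except the 3 with more, which came without tamoxifen replicate 1. Within MACS2 2.0.10 alone, 4 windows had less and 1 had more, and within MACS2 2.1.0 alone 4 had less and 4 had more, where 1 library per state is left. The cause of these changes was not tested.

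The difference of tamoxifen and untreated bases turned direction with the library left out at Airn (-1549.5 to 598.5 bp), Gnas/Nespas (-1647.5 to 1102.5 bp), H19 (-448 to 2664 bp), Kcnq1ot1 (-2272 to 3185 bp), Mest (-523 to 3772 bp) and Peg3 (-800.5 to 340.5 bp). In the cores it did so at Airn (-1549.5 to 598.5 bp), Gnas/Nespas (-809 to 615 bp), Grb10 (-994 to 535 bp) and Mest (-72 to 1092 bp). It also turned at Kcnq1ot1 with peaks of at least 500 bp (-296 bp), with equal numbers of widest peaks (-2145.5 bp) and within MACS2 2.0.10 (-1268 bp), at Peg3 within MACS2 2.0.10 (681 bp), and at Gnas/Nespas within MACS2 2.1.0 (2015 bp, and 975 bp in its core). Grb10 and Peg10 kept a lower value with tamoxifen under each alternative run. With the replicate number as a block the differences were the same by construction, at -3390 bp for Grb10 and -1674 bp for Peg10 (exact sign-flip p = 0.5, the smallest for 2 pairs), and 2 windows had less and 0 more in both numbers. The libraries share only a number and a MACS2 version. Over 12444 bins of 60 kb, the difference of replicate 2 and replicate 1 in untreated cells correlated with that after tamoxifen at r = 0.588. Without heights or depth, an absent peak is not shown to be an absent mark.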
